A study of Mus musculus with 2 samples.

Results

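The PAQR genes (progestin and adipoQ receptors) encode membrane proteins that cross the lipid bilayer several times. The 10 genes described here were Adipor1, Adipor2, Paqr3, Paqr4, Paqr5, Paqr6, Paqr7, Paqr8, Paqr9 and Mmd, chosen by symbol out of 32246 gene symbols, and all 10 were among the features counted. Adipor1 and Adipor2 are the receptors for adiponectin, the hormone that fat cells secrete. Ligand binding to them activates AMPK and PPAR-alpha signalling and a ceramidase activity. Paqr5 to Paqr9 are named membrane progesterone receptors, Paqr3 is a Golgi protein that tethers Raf kinases and the sterol sensor Scap, and Mmd was named for its induction as monocytes mature into macrophages. Paqr4, the gene that the study manipulated, is a less well known relative of the adiponectin receptors.

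The data were 2 droplet libraries of 3′ single-cell RNA-seq, 1 from Paqr4 transgenic and 1 from WT mice, made to ask how Paqr4 affects the pool of fat progenitors. Both came from the stromal vascular fraction of subcutaneous white fat, that is, what collagenase digestion leaves once adipocytes are gone. Red cells had been lysed and CD45- cells sorted, which leaves out white blood cells. Cells of 3 mice were pooled, without a statement of whether this was per genotype, and the promoter, tissue range and 3′ end of the transgene, the strain and the age are not given in the labels. The Paqr4 transgenic library held 43084906 UMIs (unique molecular identifiers, each standing for 1 captured transcript) and the WT library 44145257. Cells had to have at least 1000 UMIs, at least 500 genes and at most 10% mitochondrial UMIs, which left 1521 Paqr4 transgenic and 1328 WT cells after 4 and 1 doublets were removed. No cell barcode was shared. With 1 library per genotype nothing was tested between genotypes, and all intervals (95%) cover counting error only. Levels are in UPM, the UMIs of a gene per 1000000 UMIs summed over all cells of a class. The libraries also differed in sex, with Xist at 0.152 UPM in Paqr4 transgenic and 959 UPM in WT progenitors and Y-linked Ddx3y at 109.7 and 0.937 UPM, so genotype and sex cannot be told apart anywhere below.

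Clustering gave 6 progenitor clusters with 1359 Paqr4 transgenic and 1126 WT cells, in which 7 of 8 progenitor markers (such as Pdgfra and Col1a1) were on. Cluster 1 was led by the immediate early genes Fos and Egr1 (330 and 258 cells), and cluster 2 by Adamts4 and Il6 (210 and 269 cells). Cluster 3 was Dpp4-like (206 and 263 cells) and cluster 4 Icam1-like (246 and 162 cells). Clusters 5 and 7 were both F3-like, with C7 at the head of cluster 5 (256 and 132 cells) and Wnt4 among the top genes of cluster 7 (111 and 42 cells). Endothelial cells numbered 85 in the Paqr4 transgenic and 101 in the WT library and held 7 of 8 blood endothelial markers in their main cluster; 6 cells of each library were lymphatic endothelial-like. These names come from rebuilt clusters, not from an annotation by the authors.

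Haemoglobin-rich barcodes were those with at least 1000 UMIs and at most 10% mitochondrial UMIs of which at least 50% of the UMIs came from haemoglobin genes. With the minimum of 500 genes only 2 Paqr4 transgenic and 1 WT barcodes met this, so these barcodes are described without a gene minimum, a choice made after that count was seen. They then numbered 1409 in the Paqr4 transgenic and 1273 in the WT library, with medians of 69 and 80 genes and with haemoglobin at 97.6% and 97.3% of their UMIs, and 2 of the barcode sequences occurred in both libraries. The red cell genes Alas2 and Bpgm ranked 2 and 4 among non-haemoglobin genes there in both libraries, and Ptprc, which encodes CD45, had 0 UMIs in both.

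The promoters of the adiponectin receptor genes are shown because the receptors separated most clearly between cell classes: Adipor1 was counted in haemoglobin-rich barcodes and Adipor2 almost not. The sequences are RefSeq promoters (GRCm38.p6) that run from 250 bases before to 50 bases after a transcription start, given on the strand of the gene. Capitals mark matches on either strand to CCNCNCCC, the form of site that Krüppel-like factors of red cells and other cells bind. Adipor1 has an upstream start with a window at chr1:134415128-134415427 and a downstream start with a window at chr1:134415414-134415713, both on the plus strand, and the Adipor2 window lies at chr6:119388685-119388984 on the minus strand.
Adipor1 upstream start: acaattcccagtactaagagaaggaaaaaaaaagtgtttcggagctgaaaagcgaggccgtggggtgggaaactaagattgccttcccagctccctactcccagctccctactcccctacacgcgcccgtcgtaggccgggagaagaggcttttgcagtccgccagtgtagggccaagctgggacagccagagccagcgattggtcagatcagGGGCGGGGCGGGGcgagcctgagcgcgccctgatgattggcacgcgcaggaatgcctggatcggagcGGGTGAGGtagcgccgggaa
Adipor1 downstream start: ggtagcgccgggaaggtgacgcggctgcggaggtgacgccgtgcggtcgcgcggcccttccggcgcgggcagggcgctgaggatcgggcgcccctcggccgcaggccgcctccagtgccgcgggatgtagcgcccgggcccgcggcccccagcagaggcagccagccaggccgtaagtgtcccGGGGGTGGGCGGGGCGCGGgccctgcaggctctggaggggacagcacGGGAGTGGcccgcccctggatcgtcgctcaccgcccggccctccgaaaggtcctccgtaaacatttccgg
Adipor2: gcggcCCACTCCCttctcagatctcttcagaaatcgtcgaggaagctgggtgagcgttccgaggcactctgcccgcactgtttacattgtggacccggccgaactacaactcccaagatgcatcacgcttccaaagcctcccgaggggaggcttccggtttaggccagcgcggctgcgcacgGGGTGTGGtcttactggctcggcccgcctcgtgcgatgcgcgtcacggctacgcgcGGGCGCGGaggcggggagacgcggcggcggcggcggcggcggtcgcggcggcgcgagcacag
The upstream Adipor1 window held 3 matches, the downstream window 4 and the Adipor2 window 3, some of them overlapping, and 49.5% of 32851 promoters hold at least 1. The GATA motif of red cells (AGATAA or its variants AGATAG and also TGATAA and also TGATAG, on either strand), which occurs in 29.8% of promoters, was in none of these 3 windows. In all, 9 of 10 genes, that is, all but Paqr9, matched a promoter entry. They had 12 windows, of which 11 held CCNCNCCC and 3, belonging to Paqr7 and Paqr8, held a GATA motif.

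In GENCODE M21 (GRCm38) Adipor1 spans chr1:134415378-134433351 on the plus strand and Adipor2 spans chr6:119353150-119417704 on the minus strand, and no other gene overlaps either. The Adipor2 window shown above thus lies inside its gene, away from the annotated 5′ end. The upstream Adipor1 window covers the 5′ end of its gene, so the windows of the receptors are not equivalent in place. Paqr4 (chr17:23736186-23740867, minus strand) overlaps Pkmyt1 on the opposite strand, and Paqr3 (chr5:97082329-97111596, minus strand) overlaps Bmp2k on the opposite strand. Mmd (chr11:90249456-90278589, plus strand) shares its strand with the overlapping genes Gm45716 and Gm45883. The labels do not say how strand and shared reads were treated in the counting, so counts of Paqr3, Paqr4 and Mmd may include or lack reads of those neighbours.

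Paqr4, the gene named in the genotype, was low in both libraries. Progenitors held 250 Paqr4 UMIs in the Paqr4 transgenic library, or 9.50 UPM (8.36 to 10.8, exact Poisson), and 202 in the WT library, or 7.88 UPM (6.83 to 9.05). The ratio of Paqr4 transgenic to WT was 1.20 (log2 0.27, −0.00 to 0.54, exact conditional binomial), so a difference was not detectable at this depth. In 1 random draw of 5000 UMIs from each cell the log2 ratio was 0.86, against 0.19 for the value expected over such draws. A Paqr4 UMI was seen in 16.0% of Paqr4 transgenic progenitors (14.1 to 18.1, Clopper-Pearson) and in 15.2% of WT progenitors (13.1 to 17.4). Since Paqr4 transgenic progenitors were shallower (a median of 19327 UMIs, against 22599.5 in WT), each cell of 5000 or more UMIs was also reduced to 5000, where the share expected was 4.70% in Paqr4 transgenic and 4.08% in WT progenitors. Haemoglobin-rich barcodes held 0 Paqr4 UMIs in both libraries, below a floor of 3 UMIs that stands for 0.250 UPM in the Paqr4 transgenic and 0.264 UPM in the WT library. Barcodes of 50 UMIs or fewer, which carry free RNA, held Paqr4 at 5.56 UPM in the Paqr4 transgenic and 4.82 UPM in the WT library. Haemoglobin made up 27.8% of the UMIs of those barcodes in the Paqr4 transgenic and 30.9% in the WT library, but 0.0505% and 0.0698% of the UMIs of progenitors, so a level in those barcodes is not the background of a cell. Counting at the 3′ end may miss a transgene whose 3′ end is not that of the gene, so this is no check of the genotype.

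Paqr4 levels varied over the progenitor clusters. Paqr4 stood highest in the Icam1-like cluster 4, at 13.0 UPM (9.74 to 16.9) in the Paqr4 transgenic and 16.0 UPM (11.9 to 21.1) in the WT library. It was lowest in the Dpp4-like cluster 3 of the Paqr4 transgenic library, at 5.34 UPM (3.45 to 7.88), and in cluster 7 of the WT library, at 3.40 UPM from 3 UMIs. The other clusters lay between 7.72 and 11.3 UPM in the Paqr4 transgenic and between 4.64 and 9.58 UPM in the WT library, and neighbours in the order had overlapping intervals in both libraries. The Icam1-like cells stood above the other progenitors by a log2 value of 0.55 (0.09 to 0.99) in the Paqr4 transgenic and 1.24 (0.75 to 1.71) in the WT library. Their mean was 0.90, but at a clustering resolution of 0.3 it was 0.12. Between libraries, Paqr4 in cluster 2 was at 9.44 UPM (43 UMIs) in the Paqr4 transgenic and 4.64 UPM (31 UMIs) in the WT library, a log2 ratio of 1.02 (0.32 to 1.74), and without that cluster the ratio over progenitors was 0.08 (−0.22 to 0.38), whereas the log2 ratio was −0.30 (−0.89 to 0.28) in the Icam1-like cells.

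Across the family, 8 of 10 genes had 20 or more UMIs over the progenitors of both libraries. None of the 8 was 1.5-fold or more higher in the Paqr4 transgenic library, where 7.56% of the 15099 genes with that many UMIs were, and none was 1.5-fold or more lower, where 5.76% were. All 8 ratios lay above 0 on the log2 scale, with a median of 0.37, beside a median of 0.08 over all 15099 genes. The share of all genes above 0 was not counted, so whether the 8 differed from other genes in this was not tested. Under the cut of 20 UMIs, Paqr5 (0 UMIs in Paqr4 transgenic and 14 in WT progenitors) and Paqr9 (4 and 9) went the other way. Paqr6 passed 1.5-fold higher when the libraries were clustered separately, at the level expected for cells reduced to 5000 UMIs and when each cell had equal weight. In the 1 random draw of 5000 UMIs per cell Paqr4 and Mmd passed it instead.

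**Figure D1:**
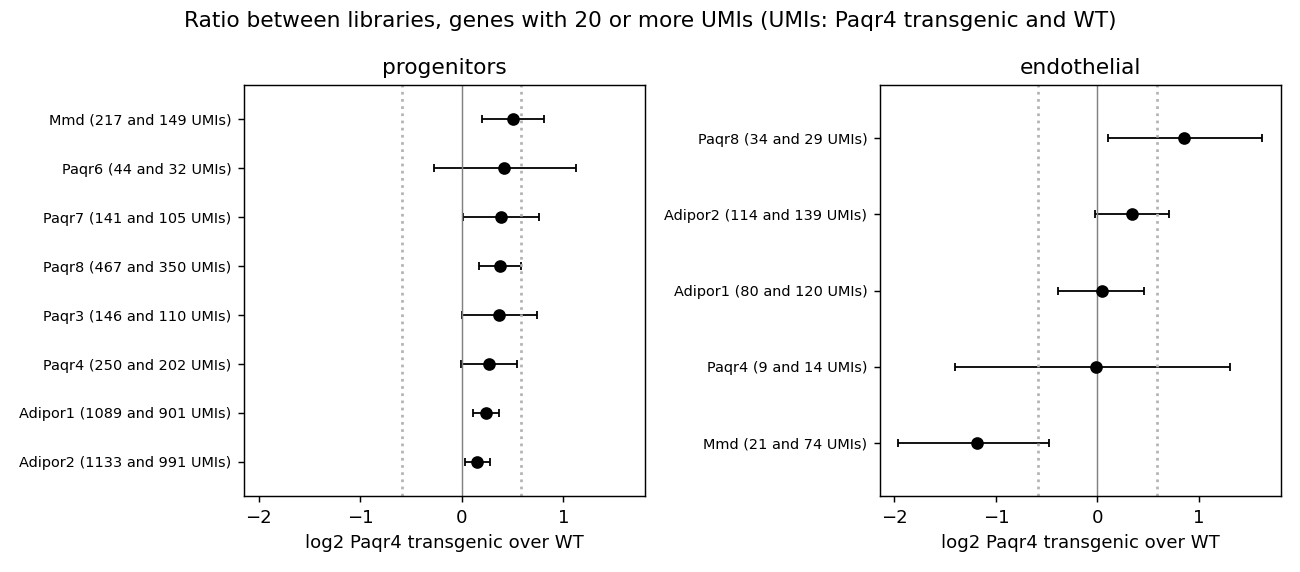
Log2 ratio of Paqr4 transgenic over WT (x axis) for each PAQR gene with 20 or more UMIs (y axis, with its UMIs in the Paqr4 transgenic and the WT library) in progenitors (left) and endothelial cells (right). Points are ratios of summed UMIs per 1000000, bars are 95% counting intervals and dotted lines mark 1.5-fold; all 8 points lie between 0 and 1.5-fold in progenitors, while Paqr8 and Mmd lie beyond it on opposite sides in endothelial cells.

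The 2 adiponectin receptors were present in every progenitor cluster. Adipor1 stood at 41.4 UPM (38.9 to 43.9, 1089 UMIs) in Paqr4 transgenic and 35.2 UPM (32.9 to 37.5, 901 UMIs) in WT progenitors, a log2 ratio of 0.23 (0.11 to 0.36). Adipor2 stood at 43.0 UPM (40.6 to 45.6, 1133 UMIs) in Paqr4 transgenic and 38.7 UPM (36.3 to 41.2, 991 UMIs) in WT progenitors, a log2 ratio of 0.15 (0.03 to 0.28). Both libraries were therefore close for either receptor. The Paqr4 transgenic value was the higher one each time, with an interval that excluded 0, narrowly so for Adipor2, beside a median log2 ratio of 0.08 over all genes. Over the 6 clusters Adipor1 ranged from 34.7 to 47.6 UPM in the Paqr4 transgenic and from 29.4 to 48.4 UPM in the WT library, with the Icam1-like cluster at the top in both. In the WT library the Adipor1 interval of that cluster (40.9 to 56.7) lay above that of cluster 5, the lowest (23.0 to 36.9). Adipor2 ranged from 40.1 to 49.1 UPM in the Paqr4 transgenic and from 30.6 to 44.8 UPM in the WT library, and its order of clusters differed between the libraries. An Adipor1 UMI was seen in 51.4% of Paqr4 transgenic and 51.0% of WT progenitors, and an Adipor2 UMI in 47.0% and 48.7%. At 5000 UMIs per cell the expected shares were 19.0% in Paqr4 transgenic and 16.2% in WT progenitors for Adipor1, and 18.0% and 16.7% for Adipor2.

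Adipor1 and Adipor2 were seen together about as often as the product of their shares. At 5000 UMIs per cell both receptors would be seen in 3.27% of Paqr4 transgenic and 2.64% of WT progenitors, where that product was 3.42% and 2.71%. In endothelial cells both would be seen in 20.4% of Paqr4 transgenic and 17.2% of WT cells, against products of 19.0% and 18.3%. No UMI of any of the 10 genes would be seen in 53.1% of Paqr4 transgenic and 58.5% of WT progenitors, and in 18.8% and 18.5% of endothelial cells.

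Endothelial cells held more of both receptors per UMI than progenitors. Adipor1 was at 121.3 UPM (96.2 to 151) in Paqr4 transgenic endothelial cells from 80 UMIs, which was 2.93-fold the level of progenitors of that library, and at 117.7 UPM (97.6 to 141) in WT endothelial cells from 120 UMIs, which was 3.35-fold. Adipor2 was at 173 UPM (143 to 208) in Paqr4 transgenic endothelial cells from 114 UMIs, which was 4.02-fold, and at 136 UPM (115 to 161) in WT endothelial cells from 139 UMIs, which was 3.53-fold. The intervals of endothelial cells and progenitors did not overlap for either gene in either library. At 5000 UMIs per cell an Adipor1 UMI would be seen in 43.1% of Paqr4 transgenic and 43.9% of WT endothelial cells, and an Adipor2 UMI in 44.1% and 41.6%. Shares at equal depth follow the level, so they do not show separately that more cells held the transcript. At full depth, 53.2% of Paqr4 transgenic and 58.9% of WT cells of the main endothelial cluster had an Adipor1 UMI, against 51.4% and 51.0% of progenitors. For Adipor2 these shares were 57.0% and 60.0%, against 47.0% and 48.7% of progenitors. Endothelial cells were shallower, with medians of 7645 UMIs in the Paqr4 transgenic and 9541 in the WT library, and summed progenitor markers stood at 121 and 246 UPM in them, against 18282 and 17744 UPM in progenitors.

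**Figure D2:**
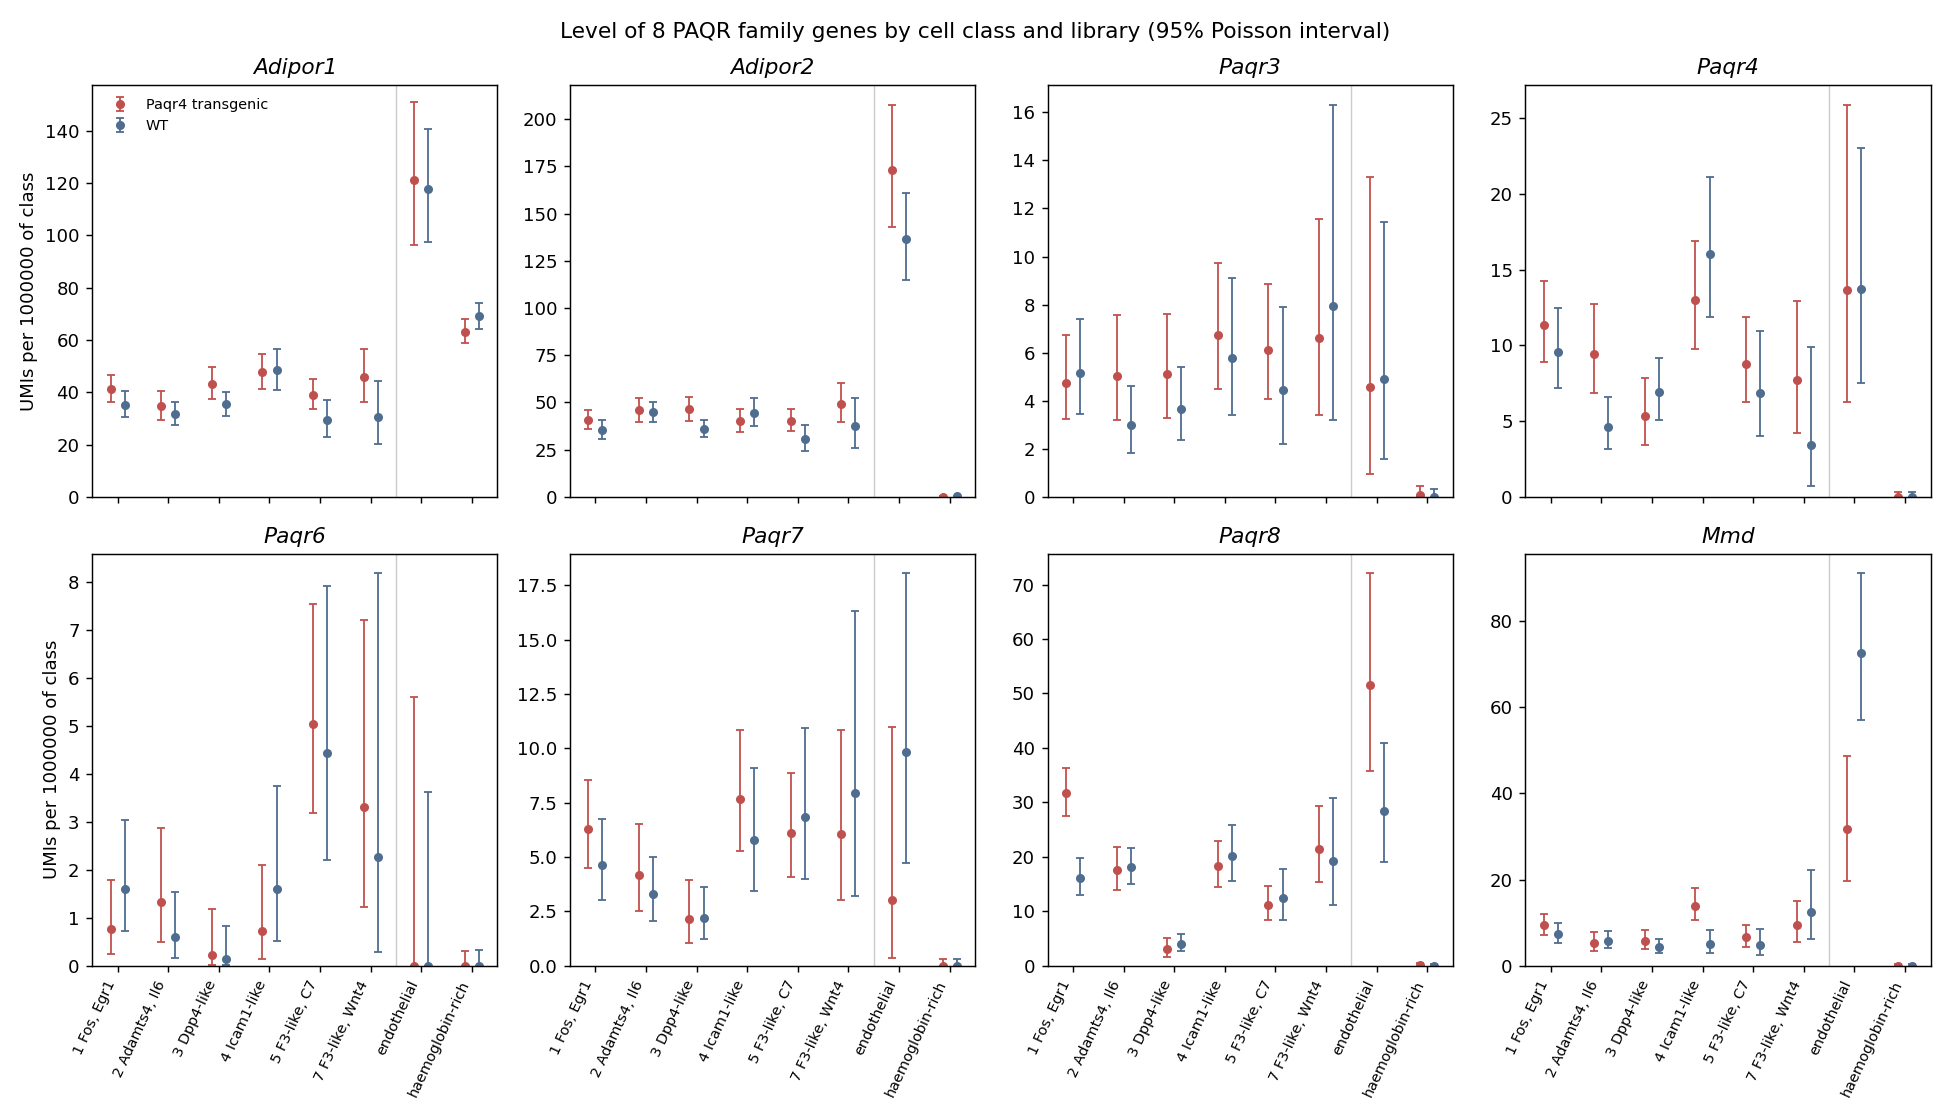
UMIs per 1000000 (y axis, a separate scale per gene) of 8 PAQR genes in 6 progenitor clusters, endothelial cells and haemoglobin-rich barcodes (x axis), with the Paqr4 transgenic library to the left of WT in each pair. Points are levels and bars are 95% Poisson intervals; Adipor1, Adipor2, Paqr8 and Mmd are highest in endothelial cells, Paqr8 is lowest among progenitors in the Dpp4-like cluster 3, and only Adipor1 stays well above 0 in haemoglobin-rich barcodes.

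Haemoglobin-rich barcodes held a large part of all Adipor1 in the libraries. They carried 758 Adipor1 UMIs in the Paqr4 transgenic library, or 36.1% of all its Adipor1 UMIs, and 785 in the WT library, or 37.7%. Their level was 63.2 UPM (58.7 to 67.8) in the Paqr4 transgenic and 69.0 UPM (64.3 to 74.0) in the WT library, which was 1.53-fold the progenitor level in the Paqr4 transgenic and 1.96-fold in the WT library. Once haemoglobin UMIs were left out of the totals, Adipor1 stood at 2666 per 1000000 remaining UMIs in the Paqr4 transgenic and 2518 in the WT library, 64.4-fold and 71.6-fold the progenitor level on the same scale. It ranked 61 of 7363 non-haemoglobin genes seen there in the Paqr4 transgenic and 64 of 7956 in the WT library. The few haemoglobin-rich barcodes with 500 or more genes held 3 Adipor1 UMIs in the Paqr4 transgenic and 1 in the WT library. The receptor was therefore one of the more frequent non-haemoglobin transcripts of these barcodes, and how far it exceeds progenitors depends on the denominator.

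Adipor2 behaved differently from Adipor1. It had 0 UMIs in 1409 haemoglobin-rich barcodes of the Paqr4 transgenic library, which allows a UMI in up to 0.261% of such barcodes (Clopper-Pearson) and limits detection only, not how many of them hold the transcript, and 2 UMIs in 1273 barcodes of the WT library. Against the Paqr4 transgenic progenitors the floor of 3 UMIs corresponds to 0.00581 of their level (log2 −7.43, upper limit of the interval −7.13). The 2 WT UMIs correspond to 0.00455 of the WT progenitor level (log2 −7.78, −10.8 to −5.92). With haemoglobin UMIs left out, these values became 0.245 at the floor in the Paqr4 transgenic library (log2 −2.03, upper limit −1.73) and 0.166 in the WT library (log2 −2.59, −5.64 to −0.74). Barcodes of 50 UMIs or fewer held Adipor1 at 42.5 UPM in the Paqr4 transgenic and 41.2 UPM in the WT library, and Adipor2 at 24.3 and 20.8 UPM. Haemoglobin made up 27.8% and 30.9% of the UMIs of those barcodes, and the part of free RNA in the haemoglobin-rich counts was not tested. Progenitor transcripts were also present in haemoglobin-rich barcodes, where Dcn had 342 UMIs in the Paqr4 transgenic and 250 in the WT library.

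Paqr9, a membrane progesterone receptor, was found mainly in the same barcodes. Haemoglobin-rich barcodes held 88 Paqr9 UMIs in the Paqr4 transgenic library, or 83.0% of its total of 106, and 118 in the WT library, or 86.1% of its total of 137. The level was 7.33 UPM (5.88 to 9.03) in the Paqr4 transgenic and 10.4 UPM (8.59 to 12.4) in the WT library, and no single barcode held more than 2 and 4 UMIs. Progenitors held only 4 Paqr9 UMIs in the Paqr4 transgenic library, or 0.152 UPM (0.0414 to 0.389), and 9 in the WT library, or 0.351 UPM (0.161 to 0.667). The haemoglobin-rich level exceeded that of progenitors by 48.3-fold (log2 5.59, 4.19 to 7.50) in the Paqr4 transgenic and 29.5-fold (log2 4.88, 3.91 to 6.05) in the WT library. Barcodes of 50 UMIs or fewer held 3.03 UPM in the Paqr4 transgenic and 1.20 UPM in the WT library. Paqr4, Paqr6, Paqr7 and Mmd had 0 UMIs in haemoglobin-rich barcodes of both libraries, and Paqr3, Paqr5 and Paqr8 had at most 1 in either.

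**Figure D3:**
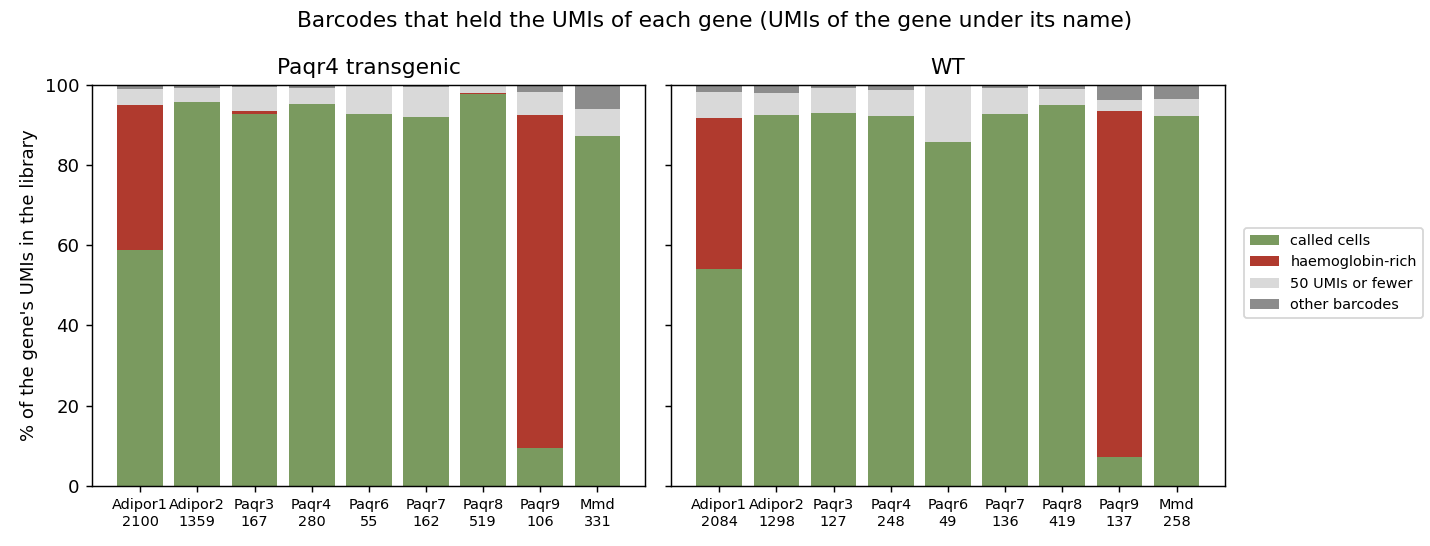
Share of each gene's UMIs (y axis, %) that lay in called cells, haemoglobin-rich barcodes, barcodes of 50 UMIs or fewer and all other barcodes, for 9 PAQR genes (x axis, with the number of UMIs in the library), in the Paqr4 transgenic (left) and WT (right) library. Paqr9 lies mostly in haemoglobin-rich barcodes (83.0% and 86.1%) and Adipor1 in part (36.1% and 37.7%), while the other genes lie mainly in called cells.

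The Adipor1 level per haemoglobin UMI was higher in the deepest barcodes than in shallower ones. Between 1000 and 3000 UMIs there were 19.4 Adipor1 UMIs per 1000000 haemoglobin UMIs (8.40 to 38.3) in the Paqr4 transgenic and 34.0 (19.0 to 56.1) in the WT library. Between 3000 and 10000 UMIs the values were 24.2 (19.4 to 29.9) and 38.4 (31.5 to 46.3). From 10000 UMIs on they were 85.6 (79.2 to 92.4) in 619 Paqr4 transgenic barcodes and 85.0 (78.6 to 91.7) in 559 WT barcodes, above both shallower bins without overlap of intervals in either library. At that depth 58.3% of Paqr4 transgenic (54.3 to 62.2) and 59.6% of WT barcodes (55.4 to 63.7) had an Adipor1 UMI. The libraries differed only in the middle bin beyond counting error. Paqr9 showed no such step, with 9.72, 5.63 and 8.25 UMIs per 1000000 haemoglobin UMIs over the 3 bins of the Paqr4 transgenic library and 6.81, 8.10 and 11.8 over those of the WT library, with overlapping intervals.

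**Figure D4:**
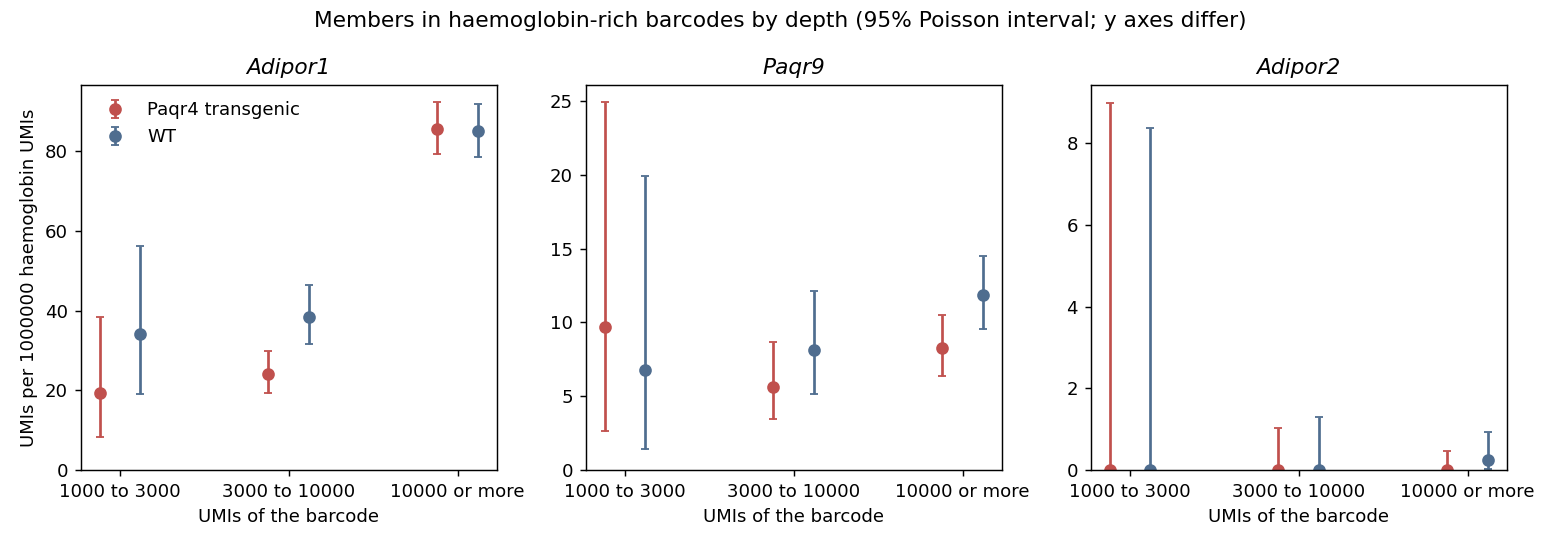
UMIs of Adipor1, Paqr9 and Adipor2 per 1000000 haemoglobin UMIs (y axis, a separate scale per gene) in haemoglobin-rich barcodes of 3 depth bins (x axis, UMIs of the barcode), with the Paqr4 transgenic library to the left of WT. Points are levels and bars are 95% Poisson intervals; Adipor1 is at 85.6 and 85.0 in the deepest bin and under 40 in the others, and Adipor2 has 2 UMIs in all.

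A small cluster of 31 Paqr4 transgenic and 34 WT cells, cluster 8, carried both haemoglobin and progenitor genes and was left unnamed. Haemoglobin made up 22.6% of its UMIs in the Paqr4 transgenic and 21.1% in the WT library. Adipor1 stood there at 48.0 UPM (33.4 to 66.7) in the Paqr4 transgenic and 75.9 UPM (57.8 to 97.9) in the WT library, where 1 cell held 14 of the 59 UMIs. Paqr9 had 4 UMIs in the Paqr4 transgenic and 1 in the WT library.

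Among the progesterone-type members, Paqr8 had the clearest pattern over progenitors. In the Dpp4-like cluster 3 it was at 2.99 UPM (1.63 to 5.01, 14 UMIs) in the Paqr4 transgenic and 3.96 UPM (2.61 to 5.77, 27 UMIs) in the WT library, while the other progenitor clusters ran from 11.1 to 31.7 UPM in the Paqr4 transgenic and from 12.5 to 20.2 UPM in the WT library. The Dpp4-like cells were thus below the other progenitors by a log2 value of −2.81 (−3.69 to −2.05) in the Paqr4 transgenic and −2.12 (−2.74 to −1.55) in the WT library. Over all progenitors Paqr8 was at 17.7 UPM (467 UMIs) in the Paqr4 transgenic and 13.7 UPM (350 UMIs) in the WT library, a log2 ratio of 0.38 (0.17 to 0.58). The largest difference was in cluster 1, with 31.7 UPM (27.5 to 36.3) in the Paqr4 transgenic and 16.1 UPM (13.0 to 19.8) in the WT library, a log2 ratio of 0.97, and without that cluster the ratio over progenitors was 0.02 (−0.23 to 0.27). In each of the other clusters with 20 or more UMIs the interval of the ratio included 0. A Paqr8 UMI was seen in 25.2% of Paqr4 transgenic and 21.3% of WT cells of cluster 1, and at 5000 UMIs the expected shares were 11.4% and 7.49%. Paqr8 UMIs were gathered in few cells, up to 13 in 1 Paqr4 transgenic and 19 in 1 WT progenitor, so counting intervals are too narrow for it.

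**Figure D5:**
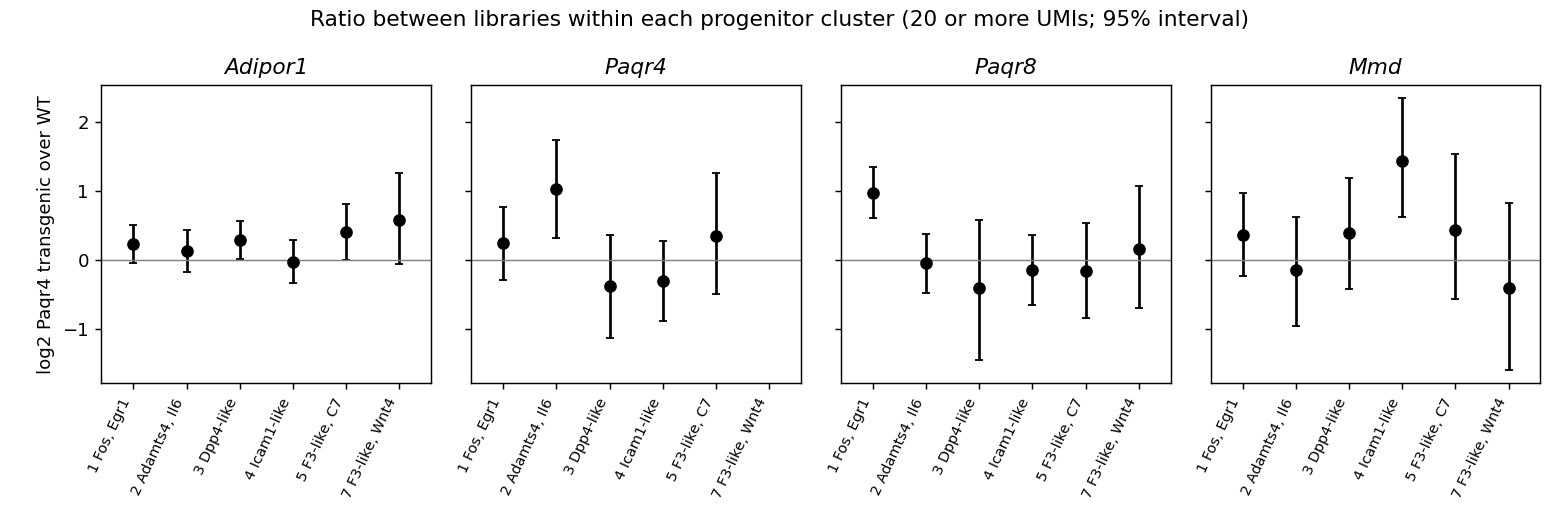
Log2 ratio of Paqr4 transgenic over WT (y axis) of 4 PAQR genes within each of 6 progenitor clusters (x axis), shown where both libraries together held 20 or more UMIs of the gene. Points are ratios and bars are 95% counting intervals; the intervals that lie wholly above 0 by the widest margins are those of Paqr4 in cluster 2, Paqr8 in cluster 1 and Mmd in cluster 4.

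In endothelial cells Paqr8 stood at 51.6 UPM (35.7 to 72.1, 34 UMIs) in the Paqr4 transgenic and 28.5 UPM (19.1 to 40.9, 29 UMIs) in the WT library. That was above progenitors by log2 1.54 (0.99 to 2.04) in the Paqr4 transgenic and 1.06 (0.46 to 1.61) in the WT library.

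Paqr6 was scarce and stood highest, among progenitors, in F3-like cells. Cluster 5 held 23 of the 44 progenitor UMIs in the Paqr4 transgenic library, at 5.03 UPM (3.19 to 7.54), and 11 of 32 in the WT library, at 4.43 UPM (2.21 to 7.92). The Dpp4-like cluster held 1 UMI in each library. Both F3-like clusters together were above the other progenitors by a mean log2 value of 2.38 over the libraries. Cluster 7 followed at 3.31 UPM from 6 UMIs in the Paqr4 transgenic and 2.26 UPM from 2 UMIs in the WT library. Over all progenitors the levels were 1.67 UPM in the Paqr4 transgenic and 1.25 UPM in the WT library, a log2 ratio of 0.42 (−0.27 to 1.12).

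Paqr7 was at 5.36 UPM (4.51 to 6.32, 141 UMIs) in Paqr4 transgenic and 4.10 UPM (3.35 to 4.96, 105 UMIs) in WT progenitors, a log2 ratio of 0.39 (0.01 to 0.76). It was lowest in the Dpp4-like cluster of both libraries, at 2.13 UPM (1.02 to 3.93) in the Paqr4 transgenic and 2.20 UPM (1.23 to 3.63) in the WT library, log2 −1.50 (−2.60 to −0.58) and −1.12 (−2.02 to −0.32) against the other progenitors. Paqr6, Paqr7 and Paqr8 thus each had their lowest progenitor level in the Dpp4-like cells of both libraries. Paqr5 had 0 UMIs in Paqr4 transgenic progenitors and 14 in WT progenitors, at 0.546 UPM (0.299 to 0.917). Set to the floor of 3 UMIs, the Paqr4 transgenic level was 0.209 of the WT level (log2 −2.26, upper limit of the interval −1.77). Over all WT cells 73.3% of the Paqr5 UMIs lay in 5 cells.

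Paqr3 was low in progenitors and endothelial cells alike. It stood at 5.55 UPM (4.68 to 6.52, 146 UMIs) in Paqr4 transgenic and 4.29 UPM (3.53 to 5.17, 110 UMIs) in WT progenitors, a log2 ratio of 0.37 (0.00 to 0.74). Its clusters ran from 4.75 to 6.73 UPM in the Paqr4 transgenic and from 2.99 to 7.92 UPM in the WT library. Endothelial cells were just under that range in the Paqr4 transgenic library, at 4.55 UPM from 3 UMIs, and within it in the WT library, at 4.91 UPM from 5 UMIs.

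Mmd was lower in Paqr4 transgenic endothelial cells, while among progenitors much of its difference lay in the Icam1-like cluster. Progenitors held 8.24 UPM (7.18 to 9.42, 217 UMIs) in the Paqr4 transgenic and 5.82 UPM (4.92 to 6.83, 149 UMIs) in the WT library, a log2 ratio of 0.50 (0.20 to 0.81). In the Icam1-like cluster the levels were 13.9 UPM (58 UMIs) in the Paqr4 transgenic and 5.12 UPM (16 UMIs) in the WT library, log2 1.44 (0.62 to 2.34). Without that cluster the progenitor log2 ratio was 0.28 (−0.06 to 0.62), and cluster 2 at −0.15 and cluster 7 at −0.41 lay below 0, with intervals that included 0. Free RNA barcodes also held more Mmd in the Paqr4 transgenic library, at 11.1 UPM (6.97 to 16.8) against 3.31 UPM (1.65 to 5.92) in the WT library, and the part of this in the progenitor difference was not tested. Endothelial cells held 31.8 UPM (19.7 to 48.7, 21 UMIs) in the Paqr4 transgenic and 72.6 UPM (57.0 to 91.1, 74 UMIs) in the WT library, log2 −1.19 (−1.96 to −0.47). A Mmd UMI was seen in 18.8% of Paqr4 transgenic (11.2 to 28.8) and 39.6% of WT endothelial cells (30.0 to 49.8), and would be seen in 15.0% and 28.5% at 5000 UMIs.

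Of 5 members with 20 or more UMIs in endothelial cells, Paqr8 was 1.5-fold or more higher in the Paqr4 transgenic library, where 13.1% of 8436 genes were, and Mmd 1.5-fold or more lower, where 16.5% were. The median log2 ratio was 0.04 over the 5 members and −0.04 over all 8436 genes. Paqr4 itself was at 13.6 UPM (6.24 to 25.9, 9 UMIs) in Paqr4 transgenic and 13.7 UPM (7.51 to 23.0, 14 UMIs) in WT endothelial cells. Mmd was also high per UMI in the small adipocyte-like cluster, with 6 UMIs at 460.4 UPM (169 to 1002) among 8 shallow Paqr4 transgenic cells and 3 UMIs among 2 WT cells. In a cluster led by Dock2 and Ptprc, immune genes, 36 Mmd UMIs lay in 8 Paqr4 transgenic cells, 23 of them in 1 cell, and 0 lay in 2 WT cells. Mmd2, a close relative of Mmd that is not among the 10, had 22 UMIs in Paqr4 transgenic and 40 in WT cells, of which 12 and 33 lay in a cluster of 6 and 9 cells led by Pkhd1 and Spp1.

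The genes whose levels ran most like those of a member were found over 14 points, namely 2 libraries in 5 progenitor clusters, blood endothelial cells and haemoglobin-rich barcodes, with Pearson's r on log2 UMIs per 1000000 plus 10 over 8881 genes; points of a library share its depth and free RNA. For Adipor1 they were Ptp4a3 (r = 0.94), Ghitm (0.92) and Nxpe2 (0.92), with Ptp4a3 at 53.1 UPM in the Paqr4 transgenic and 64.9 UPM in the WT blood endothelial cluster and at 26.4 and 19.8 UPM in haemoglobin-rich barcodes. For Adipor2 they were Ptprm, Ppp2r5a and Cdk17, each with r = 0.99, and Ptprm was at 3092 UPM in Paqr4 transgenic and 2554 UPM in WT blood endothelial cells. For Paqr8 they were Cyp26b1 (0.96), Inf2 (0.95) and Csgalnact1 (0.94). Cyp26b1, which breaks down retinoic acid, was at 9.39 UPM in Paqr4 transgenic and 4.55 UPM in WT Dpp4-like cells. For Mmd they were 6430548M08Rik (0.98), Kctd12b (0.97) and Chst2 (0.97). These 3 also stood lower in the Paqr4 transgenic blood endothelial cluster, with Kctd12b at 143 UPM in the Paqr4 transgenic and 573 UPM in the WT library and Chst2 at 39.8 and 136 UPM, values that entered the choice.

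Genes around the receptors were read in progenitors from 6 lists, whose counts stand beside the 7.56% of all 15099 genes that were 1.5-fold or more higher in the Paqr4 transgenic library and the 5.76% that were lower. Of 9 genes of adiponectin and its other binding partners with 20 or more UMIs, none was past 1.5-fold either way (median log2 0.10). Adipoq, adiponectin itself, had 3 UMIs in Paqr4 transgenic and 4 in WT progenitors. Cdh13, the T-cadherin that binds adiponectin without signalling through the PAQR family, was at 81.6 UPM in Paqr4 transgenic and 64.0 UPM in WT progenitors, and at 2031 and 1056 UPM in endothelial cells. The adiponectin paralogue C1qtnf7 was at 202 UPM in Paqr4 transgenic and 142 UPM in WT progenitors, C1qtnf12 at 12.8 and 9.33 UPM, and C1qtnf1 at 57.8 and 80.2 UPM. Appl1, the adaptor that binds both adiponectin receptors, was at 111 UPM in Paqr4 transgenic and 100.2 UPM in WT progenitors.

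Of 14 AMPK and PPAR genes 1 was 1.5-fold or more higher in the Paqr4 transgenic library and none lower (median 0.05), near the shares of all genes (7.56% and 5.76%). This was Ppargc1a, a coactivator of mitochondrial genes named after its values were seen, with 48 UMIs in Paqr4 transgenic and 12 in WT progenitors (log2 1.96, 1.03 to 3.01). Acaca, the acetyl-CoA carboxylase that AMPK inhibits, was at 64.8 and 49.1 UPM, Prkag1 at 33.8 and 26.2 UPM, Prkaa2 at 22.2 and 18.8 UPM and Cpt1a at 62.1 and 53.3 UPM. Of 10 ceramidases and ceramide synthases 1 was higher, the ceramidase Acer2 (83 and 39 UMIs), and 1 lower, the synthase Cers1 (10 and 24 UMIs), with a median of 0.14 and beside 7.56% and 5.76% of all genes. Cers4 was at 34.5 UPM in Paqr4 transgenic and 26.3 UPM in WT progenitors, Cers5 at 55.2 and 43.3 UPM, Cers6 at 124 and 99.3 UPM, and the ceramidase Acer3 at 131 and 145 UPM.

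Of 12 Golgi, Raf and sterol partners of Paqr3, 2 were 1.5-fold or more higher and none lower (median 0.09), beside 7.56% and 5.76% of all genes, and so few genes show nothing particular to the list. Insig1, which holds Scap in the endoplasmic reticulum, was at 37.8 UPM in Paqr4 transgenic and 21.3 UPM in WT progenitors (log2 0.83, 0.67 to 0.98), and Srebf2, the sterol-regulated transcription factor, at 99.9 and 65.4 UPM (log2 0.61, 0.52 to 0.70). The kinase Map2k2 was at 56.9 UPM in Paqr4 transgenic and 45.2 UPM in WT progenitors. Of 10 enzymes that set membrane fluidity 1 was higher and none lower (median 0.34), near the 7.56% and 5.76% of all genes. This was Scd4, with 19 UMIs in Paqr4 transgenic and 12 in WT progenitors (log2 0.62, −0.49 to 1.80). The fatty acid desaturases Fads1 and Fads3 were at 47.8 and 34.4 UPM and at 19.4 and 13.5 UPM, and the elongases Elovl1 and Elovl6 at 29.4 and 22.4 UPM and at 34.3 and 24.9 UPM. Of 5 membrane progesterone components none passed 1.5-fold (median 0.15). Pgrmc1 was at 54.9 UPM in Paqr4 transgenic and 60.8 UPM in WT progenitors, Pgrmc2 at 46.5 and 37.6 UPM, Nenf at 188 and 169 UPM, and Cyb5r3 at 80.8 and 68.5 UPM.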

How the data were processed

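The deposited matrices hold raw UMI counts per gene and barcode for all barcodes, and per the series text the 10x Genomics 3′ chemistry was used. The software is Cell Ranger 7.0.0 with build mm10 according to the submitters' processing notes but Cell Ranger 4 per the file headers. The sources used here do not say whether intronic reads were counted. The 32286 features were summed by symbol. Doublets were called with Scrublet in each library (scanpy 1.11.5). Cells were scaled to 10000 UMIs and log-transformed, and 2000 variable genes, 30 principal components, 15 neighbours and Leiden resolution 0.5 (leidenalg 0.10.2) gave clusters without correction between libraries. Only Mmd of the 10 genes was among the variable genes. Clusters were named from 17 marker lists, where a marker was on at 25% of its highest cluster level and 20 UPM, a class needed 50% of its markers and at least 3, and a subclass needed 3 markers 1.5-fold above other progenitors. The marker thresholds and the clustering without scaling of genes were settled after clusters had been seen, since a first clustering with scaling left cluster 1 unnamed. Shares at 5000 UMIs are expected values, computed without drawing, which replaced 1 random draw after its values had been seen. A gene at 0 UMIs was set to a floor of 3 for a ratio. The calculation of ratios and shares was checked on simulated independent Poisson counts. That check does not cover UMIs gathered in few cells.

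The members and lists were chosen with earlier results of these data known. All members are named, with Mmd2 and eGFP beside them. Further named genes are the 3 most alike for each member that reached 20 UPM in a point, over clusters with 50 or more cells or barcodes in both libraries together with haemoglobin-rich barcodes, and up to 4 per list with the largest ratio among those at 10 UPM or more. Other genes were named after their values were seen. Promoters are from RefSeq and positions from GENCODE M21, where 32235 feature identifiers were found. The calculations ran in Python 3.11.15 (scipy 1.17.1, numpy 2.4.6, pandas 2.3.3).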

Additional observations from a re-analysis of the deposited data

Results flagged for a closer look

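Mmd moved in opposite directions in the 2 main cell types, with a log2 ratio of Paqr4 transgenic over WT of 0.50 in progenitors and −1.19 in endothelial cells. Without the Icam1-like cluster 4 the progenitor value was 0.28. The difference was not tested, since each genotype had 1 library.

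The added eGFP feature had 4 UMIs in the Paqr4 transgenic library and 0 in the WT library. All 4 lay in barcodes of 50 UMIs or fewer, and none lay in a cell.

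Barcodes that the gene minimum leaves out held members too. Haemoglobin-rich barcodes under 500 genes held 755 Adipor1 UMIs in the Paqr4 transgenic and 784 in the WT library, and 88 and 118 Paqr9 UMIs.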

How the results depend on the processing

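The 8 ratios in progenitors kept their sign under all 12 alternatives. The planned thinning to 5000 UMIs was run as 1 random draw, in which the log2 ratio of Paqr4 was 0.86, of Adipor1 0.47 and of Mmd 0.77, and 2 members, Paqr4 and Mmd, passed 1.5-fold in place of 0. The level expected over draws was added after these values were seen and gave 0.19, 0.26 and 0.45. Over the 12 alternatives the log2 ratio of Paqr4 ran from 0.19 to 0.86, that of Mmd from 0.33 to 0.77, and that of Paqr6, the least stable, from 0.09 with equal weights for clusters to 0.91 with the libraries clustered separately. The number past 1.5-fold was 1 when the libraries were clustered separately, at the level expected at 5000 UMIs per cell and as a mean over cells, each time Paqr6.

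Further alternatives were chosen after seeing the data. Without the progenitor cluster in which they differed most, the log2 ratio was 0.08 for Paqr4, 0.02 for Paqr8 and 0.28 for Mmd. The mean log2 value of Adipor1 in haemoglobin-rich barcodes over progenitors was 0.79. It was 6.10 with haemoglobin and mitochondrial UMIs left out of the totals and 0.37 as a mean over cells. With the 500 gene minimum it was 0.98, from only 3 Paqr4 transgenic UMIs (log2 1.21, −1.07 to 2.76) and 1 WT UMI (0.76, −4.54 to 3.24). The alternatives to that value, which had been planned, ran from 0.79, where barcodes under 500 genes were included, to 2.91. For Paqr9 the mean log2 value without the gene minimum was 5.24, and 10.5 with haemoglobin and mitochondrial UMIs left out. The Icam1-like excess of Paqr4, 0.90, was 0.12 at resolution 0.3. The ranges that follow are of mean log2 values over the 2 libraries. The endothelial excess over progenitors of Adipor1 (1.62 to 1.67), Adipor2 (1.87 to 1.91), Paqr8 (1.18 to 1.33) and Mmd (2.80 to 2.83), the Dpp4-like value of Paqr8 (−2.56 to −1.93) and the F3-like excess of Paqr6 (2.01 to 2.55) held under the clusterings tried. For Mmd the libraries themselves differed, with log2 1.95 (1.23 to 2.60) in the Paqr4 transgenic and 3.64 (3.22 to 4.05) in the WT library. The causes were not tested.

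For Adipor1 with the 500 gene minimum, no value was had at 70% haemoglobin or without 5 cells, nor for Paqr9 without 5 cells or for Paqr6 in F3-like cells with the libraries clustered separately, since a class was then empty, at 0 UMIs or not found. No paired analysis was possible because each genotype had 1 library. Counts of Paqr5, Paqr6 and Paqr9 limit what progenitors can show for them.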
